A study of Mus musculus with 6 samples.

Results

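The genes described here are Bdnf, Ntf3, Ntrk2, Ntrk3, Sort1 and Vgf, 6 of the 31053 genes listed for single-nucleus libraries of the mouse hippocampus. They were taken by name, as the rows of the gene list carrying these symbols; the set was put together with earlier results of these data known, so counts over it are descriptions. Bdnf encodes brain-derived neurotrophic factor and Ntf3 encodes neurotrophin-3, both secreted proteins. Ntrk2 encodes TrkB, the receptor tyrosine kinase that binds brain-derived neurotrophic factor, and Ntrk3 encodes TrkC, which binds neurotrophin-3. Sort1 encodes sortilin, an intracellular sorting receptor that binds the precursor of brain-derived neurotrophic factor. Vgf encodes a precursor of secreted neuropeptides that neurotrophins induce.

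Neurotrophins are made as precursors, cleaved, stored in part in dense-core vesicles and released from neurons. The mature proteins dimerise their Trk receptors, which signal through the MAP kinase, phosphatidylinositol 3-kinase and phospholipase C branches. In the hippocampus, the granule cells of the dentate gyrus and their mossy fibres are known as a rich source of brain-derived neurotrophic factor, and neuronal activity raises Bdnf transcription.

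HDACi-CFC libraries came from male C57BL/6J mice aged 12 weeks that received CI-994, an inhibitor of class I histone deacetylases, at 30 mg/kg into the peritoneum 1 h before contextual fear conditioning with 2 foot shocks of 0.2 mA. Veh-CFC libraries came from mice given vehicle before the same conditioning. The HDACi-Context and Veh-Context libraries came from mice given CI-994 or vehicle and placed in the chamber without a shock. All animals were injected, handled and exposed to the chamber, and were killed 1 h afterwards. Each library pooled the hippocampi of 5 mice; there were 2 libraries of HDACi-CFC and of Veh-CFC, and 1 library of HDACi-Context and of Veh-Context. P-values therefore measure the spread between pools. For the library labelled Veh-Context, title and treatment say vehicle while its description names the inhibitor, and the group follows the title and treatment. This was checked in dentate granule-like nuclei over genes called in CFC with at least 100 UMIs in both Context libraries, as shares of total UMIs. Of 346 such genes over 2-fold higher in HDACi-CFC than in Veh-CFC libraries, 340 were also higher in the HDACi-Context library than in the library labelled Veh-Context. The 406 such genes over 2-fold lower in CFC were all lower there too.

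The libraries held 24508202 to 45570814 UMIs. After filtering, 26762 nuclei remained, with 3558 and 4887 nuclei in HDACi-CFC, 3649 and 4465 in Veh-CFC, 5326 in HDACi-Context and 4877 in Veh-Context libraries. The median depth was 5358 and 6336 UMIs per nucleus in HDACi-CFC, 5944 and 6799 in Veh-CFC, 6713 in HDACi-Context and 6344 in Veh-Context libraries. Of 30237 distinct barcodes, 86 occurred in more than 1 library. Nuclei were clustered without the 6 genes, and clusters were named from marker genes alone into 16 classes, each called "-like"; 6 of 27 clusters, with 9.34% of nuclei, stayed unnamed. In 12 classes every CFC library held at least 30 nuclei, and these were tested. The share of nuclei passing their own marker threshold was 77.7% for dentate granule-like, 90.9% for CA1 pyramidal-like and 95.2% for interneuron-like nuclei, and as low as 38.7% for CA2 pyramidal-like and 50.9% for subicular and cortical excitatory-like nuclei, which are therefore mixed classes.

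In GENCODE M21 (mm10), Bdnf (ENSMUSG00000048482) lies on chromosome 2 from 109674700 to 109727007 on the plus strand, and an antisense gene, Gm45346, overlaps it. Ntf3 lies on chromosome 6 from 126101412 to 126166910, minus strand. Ntrk2 lies on chromosome 13 from 58806569 to 59133970, plus strand, with 3 antisense overlapping genes, and Ntrk3 on chromosome 7 from 78175959 to 78738012, minus strand, with 2. Sort1 lies on chromosome 3 from 108284082 to 108361511, plus strand, with the antisense gene Gm12523, and Vgf on chromosome 5 from 137026392 to 137033351, plus strand, with none. Whether strand and introns entered the counting is not given in the sources used here. It is therefore not known whether a gene's count holds UMIs of its antisense partner. Counting at the 3′ end also does not separate the start sites or the receptor isoforms of a gene.

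RefSeq promoters of build GRCm38.p6 covered 3 of the 6 genes: 7 start sites of Bdnf, 2 of Ntf3 and 1 of Ntrk2. Each window runs from 250 bases before to 50 bases after the start. The windows were searched on both strands for the cyclic AMP response element TGACGTCA, its half-site TGACG and the E-box CACGTG. Of these, 3 windows are shown because they are the single Bdnf start with a half-site, the single Ntf3 start with an E-box, and the receptor promoter as a case with neither; capitals mark the match.
Bdnf, chr2:109692186-109692485, plus strand: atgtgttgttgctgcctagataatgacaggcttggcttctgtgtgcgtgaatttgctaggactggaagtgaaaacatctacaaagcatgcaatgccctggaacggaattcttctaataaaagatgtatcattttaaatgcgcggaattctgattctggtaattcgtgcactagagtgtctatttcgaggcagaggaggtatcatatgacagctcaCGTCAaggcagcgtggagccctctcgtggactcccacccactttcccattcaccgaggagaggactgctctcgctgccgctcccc
Ntf3, chr6:126166695-126166994, minus strand: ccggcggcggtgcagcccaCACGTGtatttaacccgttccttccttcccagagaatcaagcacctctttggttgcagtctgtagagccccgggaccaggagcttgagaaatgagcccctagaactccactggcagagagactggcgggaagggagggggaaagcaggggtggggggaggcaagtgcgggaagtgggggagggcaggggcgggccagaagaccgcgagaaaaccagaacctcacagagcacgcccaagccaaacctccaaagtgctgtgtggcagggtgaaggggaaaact
Ntrk2, chr13:58806319-58806618, plus strand: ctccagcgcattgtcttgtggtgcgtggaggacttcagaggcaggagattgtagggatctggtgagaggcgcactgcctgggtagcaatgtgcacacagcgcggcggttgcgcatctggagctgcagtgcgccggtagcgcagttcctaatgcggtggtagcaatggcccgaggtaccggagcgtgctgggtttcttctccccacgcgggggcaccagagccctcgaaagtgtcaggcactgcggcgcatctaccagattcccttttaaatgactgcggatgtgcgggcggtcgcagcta
In the Bdnf window the half-site reads CGTCA, the reverse complement of TGACG, and its first base lies 35 bases before the start. None of the 10 windows held the full element, 1 held a half-site and 1 held an E-box. Of all 32851 promoter windows of the table, which cover 27025 genes, 1.79% held the full element, 20.8% a half-site and 7.15% an E-box. Which of the 7 Bdnf starts the UMIs came from cannot be told from these counts.

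The ligands were first described without the drug, as CPM, the UMIs of the gene per 1000000 UMIs of the class, in the 3 vehicle libraries. Bdnf was highest in dentate granule-like nuclei, with 88.5 to 95.1 CPM and a mean of 92.2 ± 3.38 CPM (SD, n = 3). It was lowest in interneuron-like nuclei, at 8.53 ± 1.33 CPM. Between these came immature neuron-like (78.3 ± 21.3 CPM), mossy-like (78.0 ± 29.0 CPM), CA2 pyramidal-like (65.9 ± 11.3 CPM), CA3 pyramidal-like (63.0 ± 16.3 CPM) and CA1 pyramidal-like nuclei (36.1 ± 5.17 CPM). In the full order of 16 classes, endothelial-like and Cajal-Retzius-like nuclei stood between CA3 and CA1 pyramidal-like nuclei. Each class overlapped its neighbour in that full order, so neighbours there did not differ beyond the spread of the libraries. The ranges of CA3 (44.77 to 76.22 CPM) and CA1 pyramidal-like nuclei (30.81 to 41.15 CPM) lay apart. So did those of dentate granule-like and CA1 pyramidal-like nuclei. Among glia, the means were 10.0 CPM in newly formed oligodendrocyte-like nuclei, on 5 UMIs in all 3 libraries together, to 30.3 CPM in microglia-like nuclei, on 37 UMIs.

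Ntf3 followed another order. It was highest in immature neuron-like (56.2 ± 13.4 CPM), dentate granule-like (45.1 ± 2.54 CPM) and CA2 pyramidal-like nuclei (42.7 ± 17.3 CPM), whose ranges overlapped one another. Interneuron-like nuclei came next at 13.6 ± 1.81 CPM, and their range of 12.3 to 15.7 CPM lay below those of all 3 leading classes. CA1 and CA3 pyramidal-like nuclei had 5.62 ± 0.998 and 5.29 ± 2.03 CPM. CA1 pyramidal-like nuclei thus held Bdnf UMIs at a mid-range level but Ntf3 at the low end of its order.

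The receptors were spread differently over the classes. Ntrk2 was highest in astrocyte-like nuclei, with 1056 to 1320 CPM (mean 1194 ± 132), above the range of every other class. Cajal-Retzius-like nuclei had 893 ± 116 and interneuron-like nuclei 769 ± 65.1 CPM, with overlapping ranges. Dentate granule-like nuclei had 277 ± 41.6 CPM, and oligodendrocyte-like nuclei the lowest level, 37.2 ± 10.3 CPM. Ntrk3 was highest in immature neuron-like (1035 ± 130 CPM) and dentate granule-like nuclei (945 ± 34.0 CPM), with overlapping ranges. It stood at 69.7 ± 16.7 CPM in astrocyte-like and 44.6 ± 6.80 CPM in oligodendrocyte-like nuclei. The class with most Ntrk2 was therefore among the 4 lowest for Ntrk3.

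Sort1 was highest in microglia-like nuclei (241 ± 39.2 CPM), and down to endothelial-like nuclei (165 ± 20.4 CPM) each class overlapped the next. Oligodendrocyte-like nuclei, with 214 ± 16.3 CPM, and oligodendrocyte precursor-like nuclei, with 29.1 ± 12.7 CPM, had ranges apart. Vgf was highest in interneuron-like (156 ± 49.1 CPM), mossy-like (137 ± 36.2 CPM) and subicular and cortical excitatory-like nuclei (117 ± 44.0 CPM), and dentate granule-like nuclei had 23.8 ± 8.49 CPM. Its spread was wide. In mossy-like nuclei the Veh-CFC libraries themselves differed, with 114 and 178 CPM, and the Veh-Context library had 117 CPM. In dentate granule-like and interneuron-like nuclei the vehicle libraries of the 2 exposures differed. With TMM scaling, dentate granule-like nuclei had 25.4 and 24.9 CPM in Veh-CFC libraries and 12.4 CPM in the Veh-Context library. Interneuron-like nuclei had 163 and 163 CPM in Veh-CFC libraries and 90.8 CPM in the Veh-Context library. The exposure cannot be told apart from the Cell Ranger version, which was 3.0.1 for CFC and 3.0.2 for Context libraries.

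**Figure D1:**
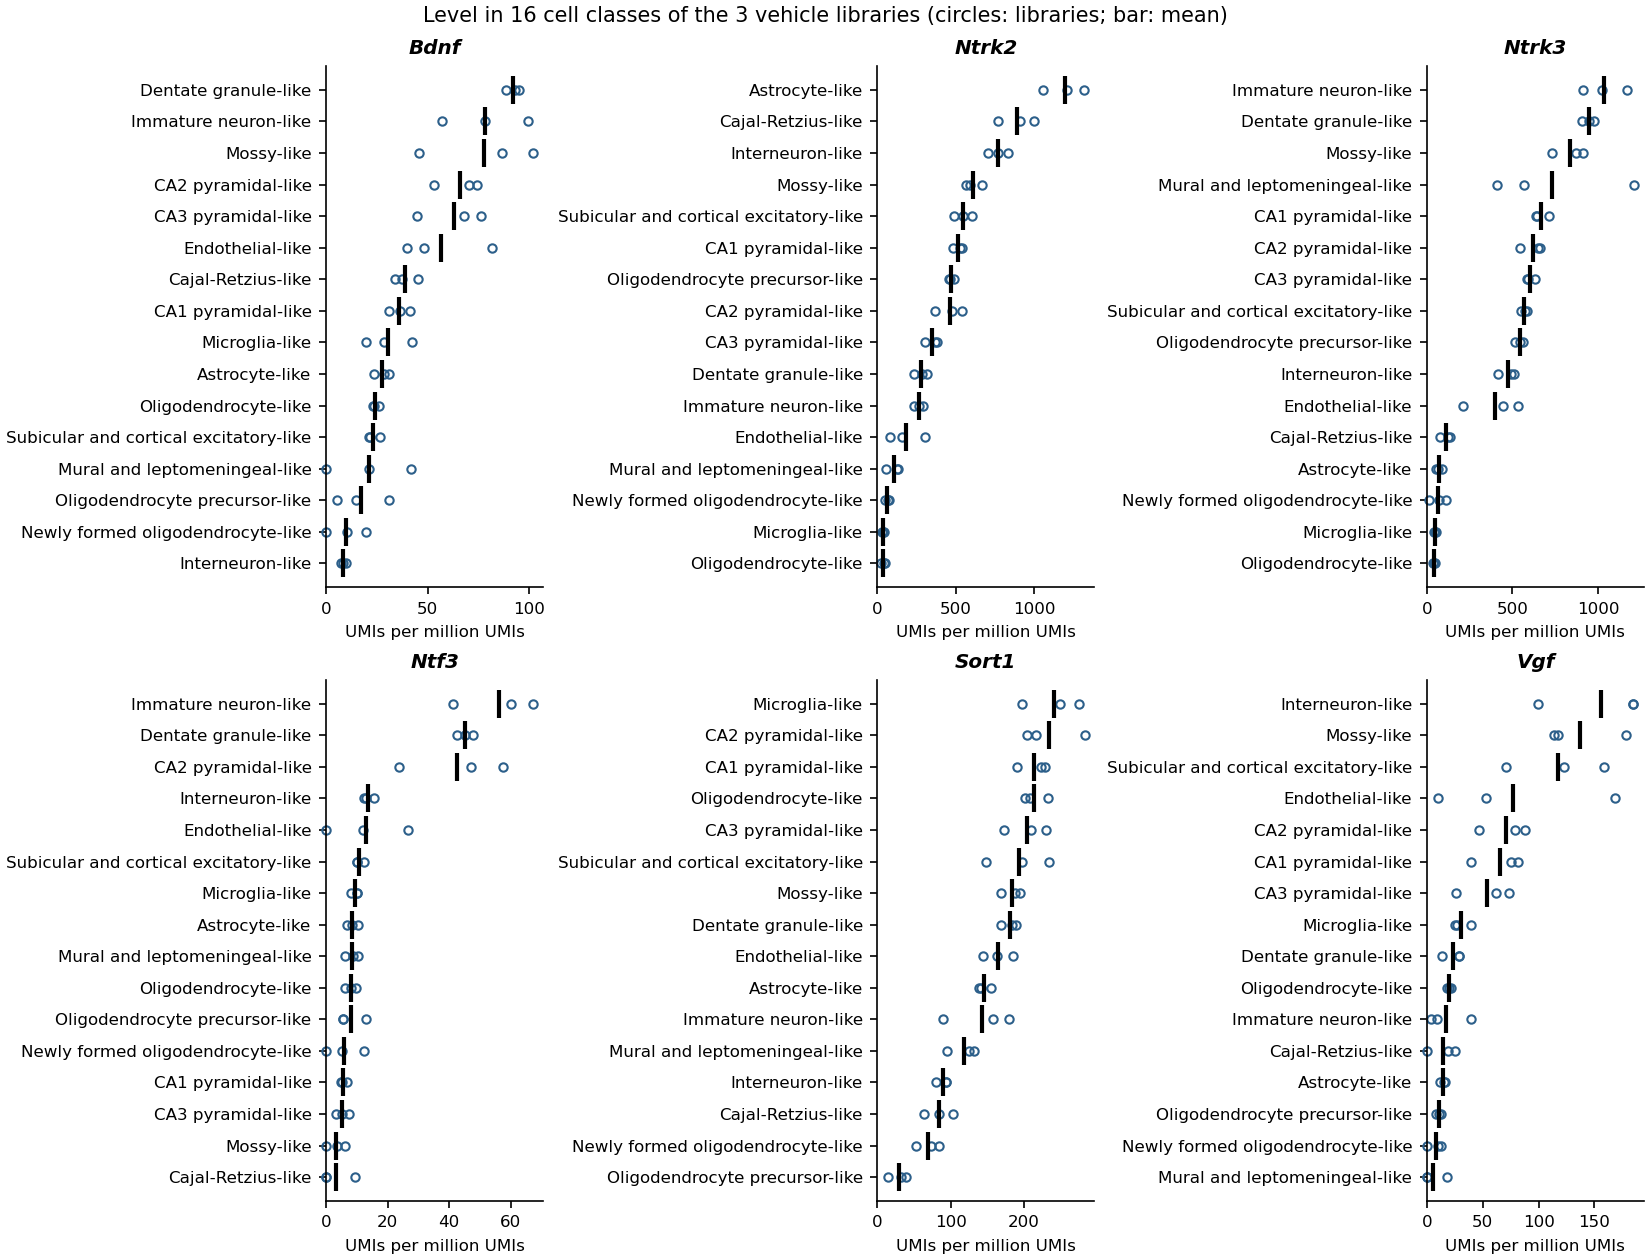
Level of the 6 genes in 16 cell classes, in CPM, with 1 circle for each of the 3 vehicle libraries and a bar for their mean. Bdnf led in dentate granule-like nuclei, Ntrk2 in astrocyte-like nuclei and Vgf in interneuron-like nuclei.

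Among other genes of the family, Ntf5 reached 0.633 CPM in CA3 pyramidal-like nuclei on 6 UMIs. Ngfr, the gene of the p75 receptor, had at most 2 UMIs in any class.

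Across the 16 classes, the genes whose log2(CPM + 1) profile was most like that of each member were named from 7909 genes by Pearson's r. Bdnf was most like Nrn1 (r = 0.908), Nptxr (0.861) and Neurod2 (0.853). Ntrk2 was most like Wnk2 (0.917), Fmn2 (0.909) and Pank1 (0.904), and Ntrk3 like Kcnt2 (0.952), Setbp1 (0.942) and Rbfox1 (0.942). Ntf3 was most like Vwa3a (0.82), Rfx3 (0.798) and Syt10 (0.752). Sort1 was most like Inpp5k (0.849), Sorl1 (0.818) and Mrpl41 (0.787), and Vgf like Slc6a7 (0.917), Ckmt1 (0.871) and Far2 (0.866). Every class comes from the same libraries, Rfx3 was itself a marker used to name the dentate granule-like class, and these values are descriptions.

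The main question of the design was what CI-994 changed in conditioned animals. Both ligands, both receptors and the sorting receptor were higher with the drug in dentate granule-like nuclei, and Vgf was not called. Bdnf had 189 and 188 CPM in HDACi-CFC libraries, against 77.8 and 81.0 CPM in Veh-CFC libraries. The groups lay far apart, and Bdnf was 2.34-fold higher (log2 1.23 ± 0.080 SE, edgeR quasi-likelihood adjusted p = 6.13e-11). From here on CPM values are scaled by TMM within the class, and log2 values are HDACi over Veh. Called means an edgeR quasi-likelihood adjusted p below 0.05 over all genes tested in the class. Sums of marker lists and baseline levels of single clusters are the exception and stay per total UMIs, without TMM.

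Ntf3 had 92.0 and 91.6 CPM in dentate granule-like nuclei of HDACi-CFC libraries, against 41.9 and 37.1 CPM in Veh-CFC libraries (log2 1.21 ± 0.098 SE, edgeR adjusted p = 1.75e-09). Its groups did not overlap and its relative change was close in size to that of Bdnf. Ntrk3 had 1557 and 1545 CPM with HDACi-CFC, against 860 and 792 CPM with Veh-CFC (log2 0.89 ± 0.058, edgeR adjusted p = 6.34e-11). Sort1 had 322 and 310 CPM with HDACi-CFC, against 162 and 164 CPM with Veh-CFC (log2 0.93 ± 0.071, edgeR adjusted p = 7.32e-10). Both were close to double the vehicle level in either drug library. Ntrk2 had 356 and 334 CPM with HDACi-CFC, against 251 and 273 CPM with Veh-CFC, a smaller difference with no overlap (log2 0.37 ± 0.071, edgeR adjusted p = 0.000179); with each gene's UMIs set per nucleus the value was -0.10. Vgf had 21.2 and 27.3 CPM with HDACi-CFC, against 25.4 and 24.9 CPM with Veh-CFC, so the groups overlapped (log2 -0.04 ± 0.142, edgeR adjusted p = 0.815).

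These 5 calls of 6 genes stand against a background in which 49.6% of the 15112 genes tested in dentate granule-like nuclei were called, 23.5% higher and 26.1% lower. The drug libraries had fewer genes detected per nucleus, with medians of 2212 and 2463 in HDACi-CFC and 2770 and 3034 in Veh-CFC libraries. Scaling by total UMIs in place of TMM moved the median log2 value of all genes in this class by -0.36, and per nucleus by -0.46. Called genes then split into 1473 higher and 6838 lower with total UMIs and 659 higher and 6345 lower per nucleus, against 3552 higher and 3948 lower with TMM. Bdnf, Ntf3 and Sort1 stayed called higher under all 3 scalings, at log2 0.76, 0.74 and 0.47 per nucleus. Ntrk3 was 0.53 with total UMIs and 0.43 per nucleus, where it missed the threshold (edgeR adjusted p = 0.0531). Ntrk2 was 0.01 with total UMIs (edgeR adjusted p = 0.935), and Vgf was called lower with total UMIs (-0.41) and per nucleus (-0.51).

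Astrocyte markers moved with these groups. All 12 genes of the astrocyte list had UMIs in dentate granule-like nuclei of every library. Their summed level was 1684 and 1791 CPM in HDACi-CFC libraries and 1103 and 1084 CPM in Veh-CFC libraries. The list includes Slc4a4, which was itself among the 10 leading genes of dentate granule-like cluster 1. This sum can therefore not be read as astrocyte RNA alone, and a sum without Slc4a4 was not taken. The oligodendrocyte list, 11 of 11 genes detected, summed to 354 and 405 CPM in HDACi-CFC libraries and 436 and 458 CPM in Veh-CFC libraries. Both sums are per total UMIs, a scaling that moved the median log2 value of this class by -0.36. Whether the oligodendrocyte direction holds under TMM was not tested. The part of either list in the results, Ntrk2 above all, was not tested.

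**Figure D2:**
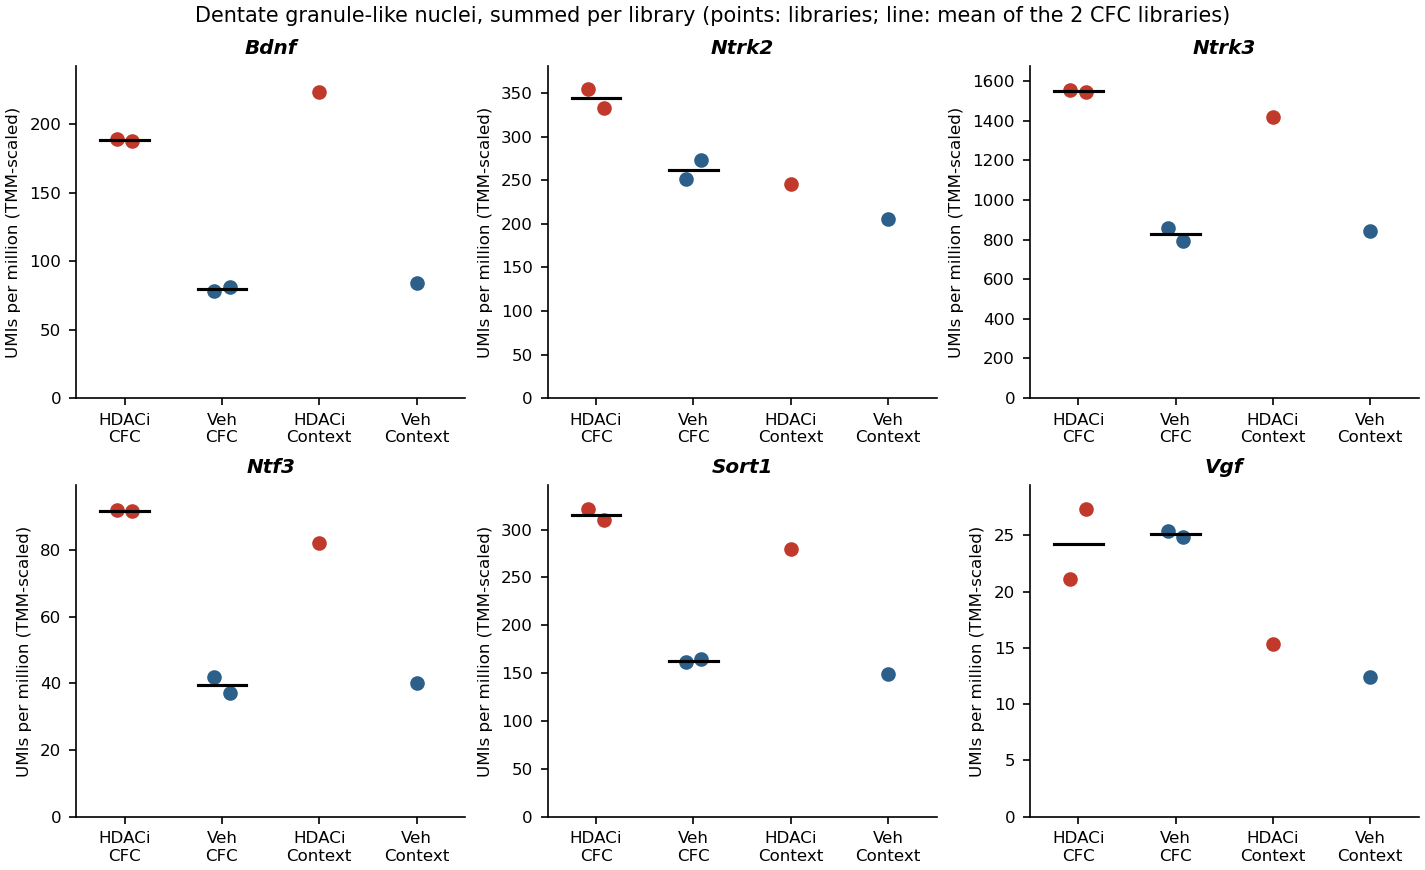
Dentate granule-like nuclei summed per library, as TMM-scaled CPM, with 1 point per library, HDACi in red, Veh in blue, and a line for the mean of 2 CFC libraries. Bdnf, Ntf3, Ntrk3 and Sort1 lie apart by drug in CFC and in Context, whereas Vgf overlaps in CFC and lies lower in both Context libraries.

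The dentate class was made of 2 clusters, and unnamed cluster 7 scored highest on the same markers without one among its 10 leading genes. Cluster 0, led by genes such as Plk5, Stxbp6 and Trpc6, held more Bdnf at baseline than cluster 1, led by Dsp, Tdo2 and Rfx3: 135 ± 4.66 against 59.2 ± 1.35 CPM in the 3 vehicle libraries. Those baseline values are per total UMIs. Fitted alone with TMM, Bdnf in cluster 0 had 254 and 251 CPM with HDACi-CFC and 115 and 117 CPM with Veh-CFC (log2 1.11). In cluster 1 it had 137 and 133 CPM with HDACi-CFC and 52.3 and 49.6 CPM with Veh-CFC (log2 1.40), and in cluster 7 the log2 value was 1.34. Bdnf was called higher in all 3 clusters, in which 45.4%, 45% and 35.2% of genes tested were called. Ntrk2 was called in cluster 1 (log2 0.56, edgeR adjusted p = 1.44e-05) and not in cluster 0 (0.16, edgeR adjusted p = 0.134), and the difference between the clusters was not tested. These separate cluster fits were added after the data had been seen.

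In the other classes Bdnf was called higher in 4 more of the 10 classes in which it was tested, and in none lower. CA1 pyramidal-like nuclei had 48.9 and 59.4 CPM with HDACi-CFC, against 27.4 and 32.1 CPM with Veh-CFC (log2 0.86, edgeR adjusted p = 6.62e-05, where 38.6% of genes were called). CA3 pyramidal-like nuclei had 78.9 and 82.9 CPM with HDACi-CFC, against 62.0 and 39.9 CPM with Veh-CFC (log2 0.67, edgeR adjusted p = 0.000528, where 31.4% of genes were called). The groups did not overlap in either class, but the CA3 value rested on the second Veh-CFC library: without it the log2 value was 0.36 and was not called (edgeR adjusted p = 0.14). CA2 pyramidal-like nuclei had 71.9 and 67.2 CPM with HDACi-CFC, against 48.8 and 66.5 CPM with Veh-CFC, and were not called (log2 0.25). In that class the CA3 marker list summed to 4283 and 4054 CPM with HDACi-CFC, against 2825 and 2814 CPM with Veh-CFC, with 6 or 7 of its 7 genes detected, and its part was not tested. Subicular and cortical excitatory-like nuclei had 22.6 and 24.0 CPM with HDACi-CFC, against 18.9 and 19.2 CPM with Veh-CFC (log2 0.30, not called).

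Interneuron-like nuclei had little Bdnf, 15.2 and 11.1 CPM with HDACi-CFC and 8.74 and 6.35 CPM with Veh-CFC (log2 0.75, edgeR adjusted p = 0.104), and immature neuron-like nuclei had 104 and 135 CPM with HDACi-CFC, against 70.5 and 51.8 CPM with Veh-CFC (log2 0.99, edgeR adjusted p = 0.0647). The groups lay apart in both without passing the threshold. In oligodendrocyte-like nuclei Bdnf was called (log2 1.24, edgeR adjusted p = 0.00106, where 37.8% of genes were called) on 24 and 55 UMIs with HDACi-CFC and 20 and 27 UMIs with Veh-CFC. In microglia-like nuclei it was called (log2 1.30, edgeR adjusted p = 0.00909, where 39.2% were called) on 15 and 23 UMIs with HDACi-CFC and 6 and 14 UMIs with Veh-CFC. Dentate granule markers moved with both: in oligodendrocyte-like nuclei the list of 10 summed to 5098 and 5442 CPM with HDACi-CFC, against 3626 and 3655 CPM with Veh-CFC, all 10 detected. In microglia-like nuclei it summed to 2051 and 2069 CPM with HDACi-CFC, against 1562 and 1533 CPM with Veh-CFC, with 8 to 10 genes detected, and the part of these UMIs in the glial Bdnf values was not tested. The oligodendrocyte call was lost without either Veh-CFC library (log2 1.24 without the first and 1.29 without the second). In those fits the oligodendrocyte-like class lost its calls as a whole, so the loss was not particular to Bdnf. The same applies to the Ntf3, Ntrk3 and Sort1 calls of that class below. The microglia call was lost without the second HDACi-CFC library (1.40) or the first Veh-CFC library (1.10).

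Ntf3 was called higher in 5 of 8 classes tested. Besides dentate granule-like nuclei these were CA1 pyramidal-like (log2 0.76), subicular and cortical excitatory-like (1.07, where 20.2% of genes were called), interneuron-like (0.91, where 30.4% were called) and oligodendrocyte-like nuclei (1.63), all on 7 to 67 UMIs per CFC library. In oligodendrocyte-like nuclei the dentate granule markers moved with the groups, as given beside Bdnf, and their part in the Ntf3 value was not tested. Interneuron-like nuclei had 24.9 and 18.4 CPM with HDACi-CFC, against 11.4 and 10.8 CPM with Veh-CFC. Of the interneuron-like clusters, cluster 10, led by Sst, Crhbp and Nxph1, had 34.2 and 24.3 CPM with HDACi-CFC and 10.8 and 11.3 CPM with Veh-CFC (log2 1.34, called, where 20.8% were called). Cluster 18, led by genes such as Hapln1, Egfr and Pnoc, had 13.5 and 22.2 CPM with HDACi-CFC and 27.7 and 27.1 CPM with Veh-CFC (log2 -0.56, edgeR adjusted p = 0.482, where 16.7% were called). The directions differed in CFC, and that difference was not tested. In Context, with 1 library each, cluster 18 had 48.9 CPM with HDACi and 27.3 CPM with Veh. Cluster 10 had 21.2 CPM with HDACi-Context and 14.7 CPM with Veh-Context. CA2 pyramidal-like nuclei, a class with much Ntf3 at baseline, had 34.5 and 64.3 CPM with HDACi-CFC, against 43.2 and 51.4 CPM with Veh-CFC, so the groups overlapped (log2 0.13). Leaving out 1 library ended the call in 4 of these classes. In CA1 this held without the second HDACi-CFC (0.77) or second Veh-CFC library (0.55), in interneuron-like nuclei without the first HDACi-CFC (0.72) or second Veh-CFC library (0.88). In subicular nuclei it held without the second HDACi-CFC (0.59) or either Veh-CFC library (1.06 each), and in oligodendrocyte-like nuclei without the second HDACi-CFC (1.47) or either Veh-CFC library (1.82 and 1.44).

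Ntrk2, the receptor gene of brain-derived neurotrophic factor, was called higher in 8 of 12 classes. In oligodendrocyte precursor-like nuclei it had 890 and 962 CPM with HDACi-CFC, against 408 and 429 CPM with Veh-CFC (log2 1.12 ± 0.131 SE, edgeR adjusted p = 1.27e-09, where 30.3% of genes were called). Interneuron-like nuclei had 1440 and 1319 CPM with HDACi-CFC, against 740 and 676 CPM with Veh-CFC (log2 0.94). Astrocyte-like nuclei, the class with the highest level, had 2073 and 2175 CPM with HDACi-CFC, against 1053 and 1169 CPM with Veh-CFC (log2 0.91, where 30.6% were called). In these 3 classes the drug libraries held close to double the vehicle level. In CA1 pyramidal-like nuclei the difference was smaller, 640 and 612 CPM with HDACi-CFC against 482 and 467 CPM with Veh-CFC (log2 0.39; 0.06 with total UMIs and -0.06 per nucleus). CA3 and CA2 pyramidal-like nuclei were not called, at log2 0.12 and 0.04. All 3 interneuron-like clusters were called when fitted alone, at log2 0.95, 0.88 and 0.85, where 20.8%, 14.5% and 16.7% of genes were called.

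Some calls were lost when 1 library was left out, although the log2 values stayed above 0. These were subicular and cortical excitatory-like (log2 0.42), Cajal-Retzius-like (0.83, where 14.3% of genes were called) and microglia-like nuclei (0.95). The first was lost without the first (0.36) or second Veh-CFC library (0.49), the second likewise (0.75 and 1.11). The third, on 11 to 30 UMIs per library, was lost without any 1 of the 4 libraries (0.82 to 1.13), and the part of the dentate granule markers given beside Bdnf was not tested. Immature neuron-like (0.03) and oligodendrocyte-like nuclei (0.36) were not called.

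Ntrk3 was called higher in 11 of 12 classes, the most of any of the 6 genes. Immature neuron-like nuclei had 1986 and 2016 CPM with HDACi-CFC, against 821 and 929 CPM with Veh-CFC (log2 1.13 ± 0.150 SE, edgeR adjusted p = 0.00153, where 11.9% of genes were called). It was the one of 5 members tested in that class that was called. CA2 pyramidal-like nuclei had 1176 and 1018 CPM with HDACi-CFC, against 609 and 490 CPM with Veh-CFC (log2 0.99, edgeR adjusted p = 7.47e-05, where 17% were called). CA1 and CA3 pyramidal-like and interneuron-like nuclei followed at log2 0.88, 0.83 and 0.72, with no overlap of the groups. Cajal-Retzius-like nuclei gave the highest value, log2 1.93, on 50 and 38 UMIs with HDACi-CFC and 13 and 9 UMIs with Veh-CFC, and its call was lost without the first (2.39) or second Veh-CFC library (1.70). Astrocyte-like nuclei had 74.5 and 77.2 CPM with HDACi-CFC, against 77.3 and 50.3 CPM with Veh-CFC, overlapped and were not called (log2 0.25). The other calls were subicular and cortical excitatory-like (0.71, lost without the first Veh-CFC library at 0.68), oligodendrocyte precursor-like (0.64), oligodendrocyte-like (1.27, lost without the first at 1.42 or second Veh-CFC library at 1.17) and microglia-like nuclei (1.14, lost without the second HDACi-CFC at 0.73 or second Veh-CFC library at 1.02). Dentate granule markers moved with the groups in both of the last classes, as given beside Bdnf, and their part in the Ntrk3 values was not tested.

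Sort1 was called higher in 9 of 12 classes, with log2 values of 0.55 in CA2 pyramidal-like to 0.95 in CA1 pyramidal-like nuclei. CA1 pyramidal-like nuclei had 393 and 383 CPM with HDACi-CFC, against 203 and 198 CPM with Veh-CFC, and microglia-like nuclei had 423 and 420 CPM with HDACi-CFC, against 178 and 247 CPM with Veh-CFC. The groups did not overlap in either. Oligodendrocyte-like nuclei had 365 and 292 CPM with HDACi-CFC, against 203 and 182 CPM with Veh-CFC (log2 0.75), a call lost without the first (0.84) or second Veh-CFC library (0.70). Without the first Veh-CFC library the CA2 (0.40) and subicular (0.57) calls were lost as well. Immature neuron-like nuclei had 147 and 149 CPM with HDACi-CFC, against 161 and 144 CPM with Veh-CFC, and were not called (log2 -0.09).

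Vgf was the exception among the 6 genes: it was called higher in none of 9 classes and lower in 1. That was CA3 pyramidal-like nuclei, with 42.0 and 49.9 CPM with HDACi-CFC, against 66.8 and 55.2 CPM with Veh-CFC (log2 -0.41 ± 0.147 SE, edgeR adjusted p = 0.0296). The call was lost without the first HDACi-CFC library (-0.30), without the first Veh-CFC library (-0.28) and with DESeq2 (-0.41, DESeq2 adjusted p = 0.214). In interneuron-like nuclei, where its level was highest, Vgf had 156 and 145 CPM with HDACi-CFC, against 163 and 163 CPM with Veh-CFC (log2 -0.14). With total UMIs it was called lower in dentate granule-like (-0.41), CA1 pyramidal-like (-0.52), interneuron-like (-0.47) and subicular and cortical excitatory-like nuclei (-0.54). Counting UMIs per nucleus, it was called lower in the first 3 of these (-0.51, -0.64 and -0.63).

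Over the 63 pairs of a gene and a class, 38 were called higher and 1 lower. By class, the members called higher were 5 of 6 in dentate granule-like nuclei (23.5% of all genes higher), 5 of 6 in CA1 (18.4%), 2 of 6 in CA2 (9.95%) and 3 of 6 in CA3 pyramidal-like nuclei (16.4%). They were 4 of 6 in subicular and cortical excitatory-like (12% of all genes higher), 4 of 6 in interneuron-like (17%), 2 of 3 in Cajal-Retzius-like (9.18%) and 1 of 5 in immature neuron-like nuclei (8%). Among glia they were 2 of 5 in astrocyte-like (17% of all genes higher), 4 of 6 in oligodendrocyte-like (20.1%), 2 of 3 in oligodendrocyte precursor-like (17.2%) and 4 of 5 in microglia-like nuclei (20.8%). Of all genes, the shares called lower were 26.1% in dentate granule-like, 20.3% in CA1, 7.08% in CA2, 14.9% in CA3, 8.25% in subicular and 13.4% in interneuron-like nuclei, where members counted 0 but for Vgf in CA3. They were 5.09% in Cajal-Retzius-like, 3.86% in immature neuron-like, 13.6% in astrocyte-like, 17.7% in oligodendrocyte-like, 13% in oligodendrocyte precursor-like and 18.5% in microglia-like nuclei, with no member lower. With UMIs per nucleus, no member was called higher in CA1, CA3, subicular, interneuron-like, astrocyte-like or microglia-like nuclei, where 164 to 374 of all genes still were. All classes come from the same 4 libraries, so these counts are not independent of each other. Of the 39 calls, 6 held under every alternative fixed in the design: Bdnf, Ntf3 and Sort1 in dentate granule-like nuclei, Ntrk3 in CA2 pyramidal-like and immature neuron-like nuclei, and Ntrk2 in oligodendrocyte precursor-like nuclei.

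**Figure D3:**
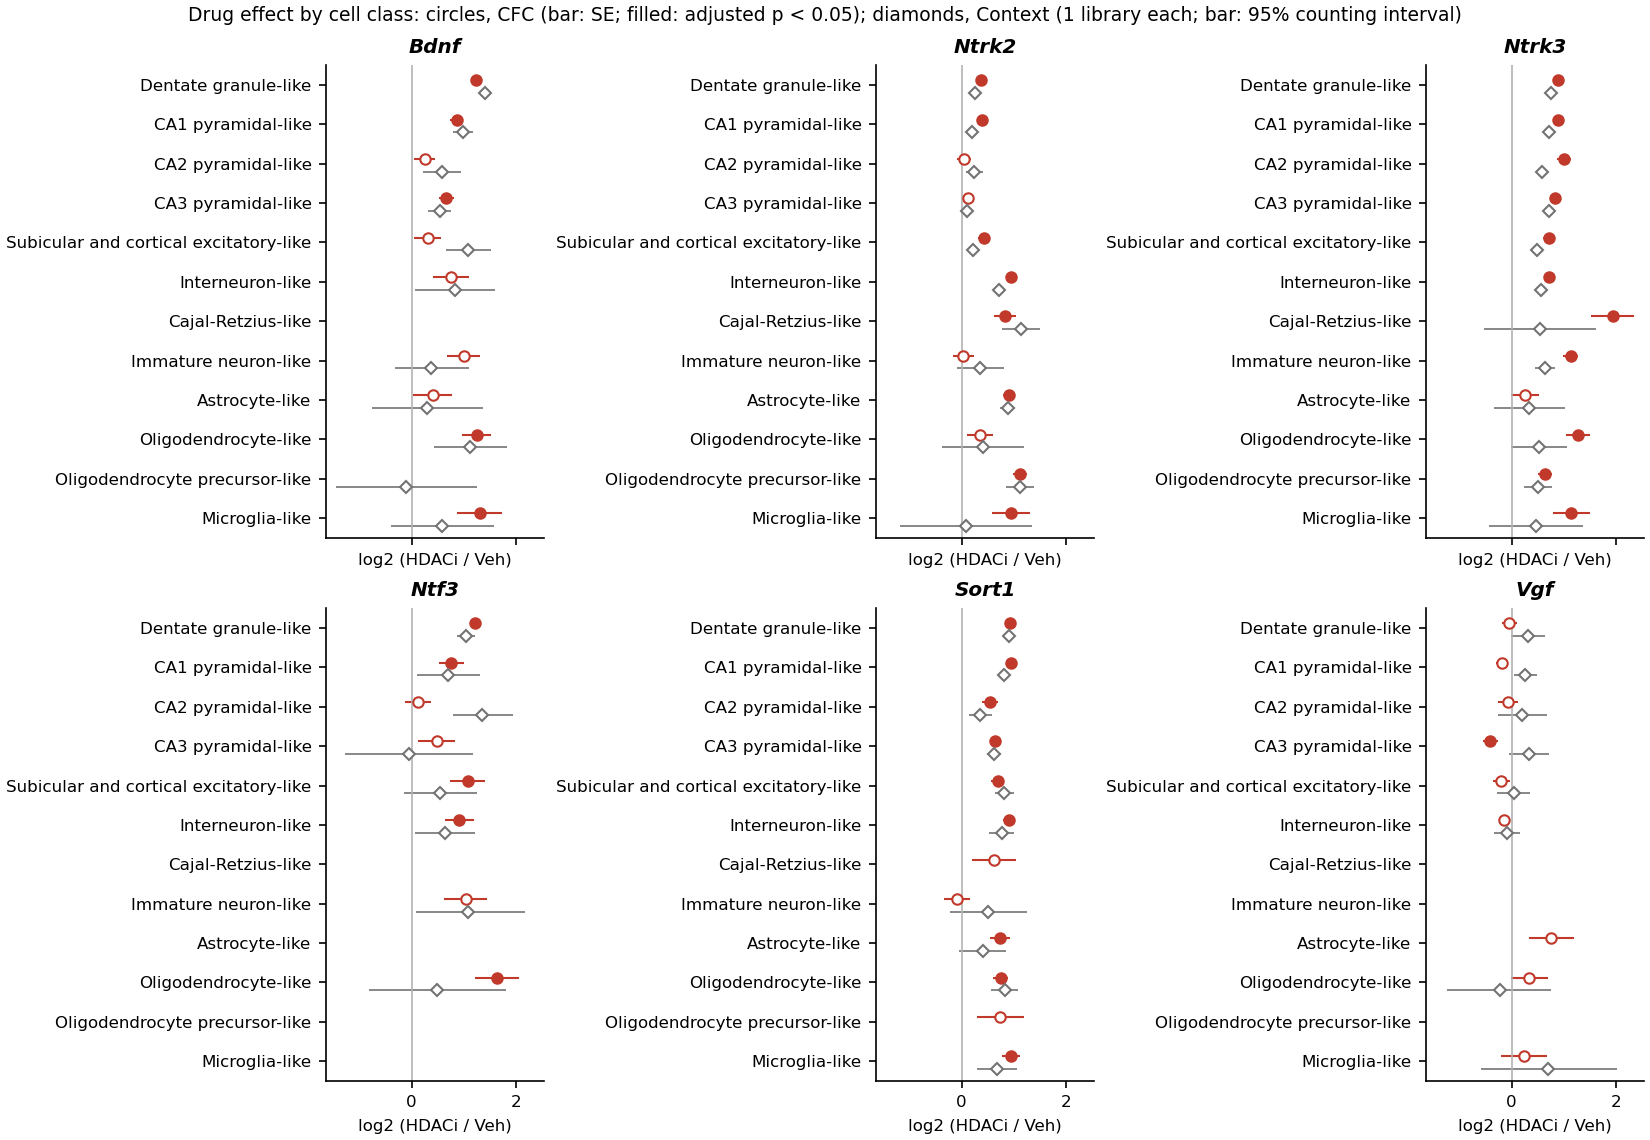
Drug effect on each gene in 12 cell classes as log2 of HDACi over Veh; circles are the CFC comparison with SE bars, filled where the adjusted p was below 0.05, and diamonds the Context comparison of 1 library each with 95% counting intervals, shown where both libraries held at least 10 UMIs. Ntrk3 was called in 11 and Sort1 in 9 of 12 classes; among the neuronal classes Bdnf (1.23) and Ntf3 (1.21) stood highest in dentate granule-like nuclei, and Vgf was called higher in none.

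**Figure D4:**
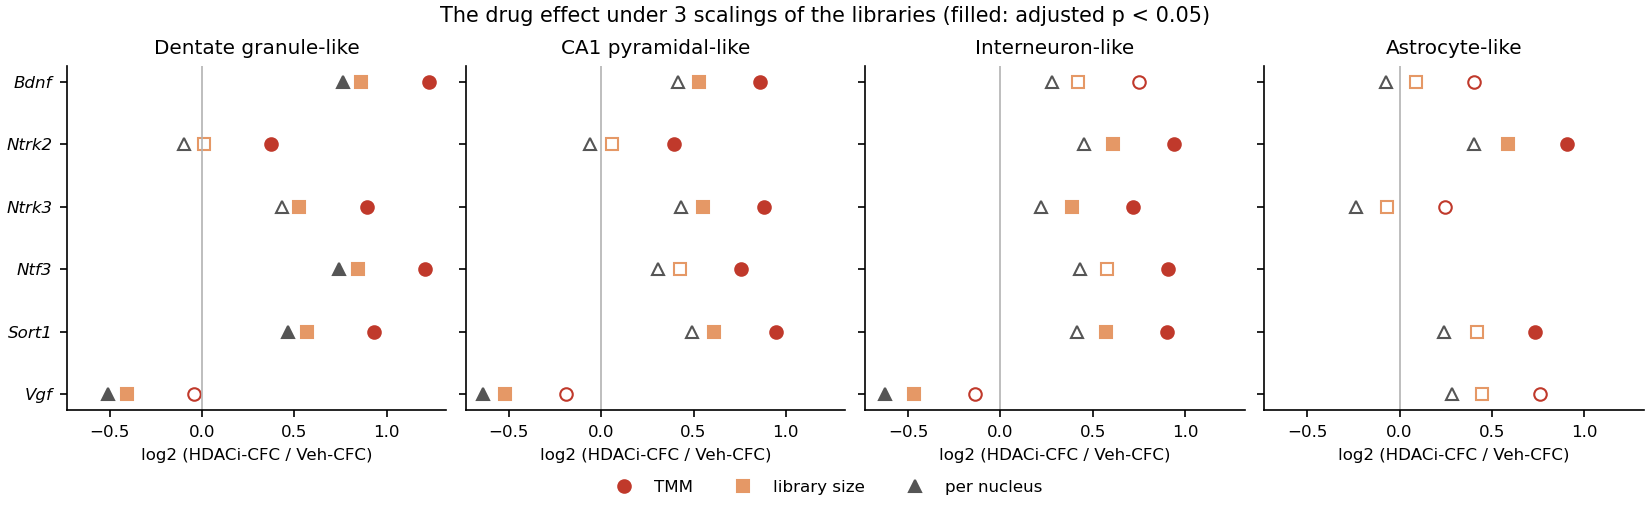
Log2 of HDACi-CFC over Veh-CFC for each gene in 4 classes under TMM, total UMI and per-nucleus scaling, filled where the adjusted p was below 0.05. Each scaling moved all 6 genes of a class together: in dentate granule-like nuclei Bdnf was 1.23, 0.86 and 0.76, and Ntrk2 was 0.37, 0.01 and -0.10.

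Whether the drug effect differed between dentate granule-like nuclei and each other class was tested in joint fits with library as a block. Of 66 differences, 13 were called. The effect on Bdnf was smaller in CA1 pyramidal-like (difference -0.43 ± 0.116 SE, edgeR adjusted p = 0.00599, where 16.6% of genes were called), CA2 pyramidal-like (-1.07, where 7.81% were called), CA3 pyramidal-like (-0.63, where 16.4% were called) and subicular and cortical excitatory-like nuclei (-0.98, where 9.11% were called). Ntf3 differed in CA2 pyramidal-like nuclei (-1.16). The receptor Ntrk2 went the other way in 2 classes, with a larger effect in interneuron-like (0.47, where 15.8% were called) and oligodendrocyte precursor-like nuclei (0.66, where 9.1% were called). Its effect was smaller in CA2 (-0.42) and CA3 pyramidal-like nuclei (-0.34). Ntrk3 had a smaller effect in interneuron-like (-0.28) and astrocyte-like nuclei (-0.77, where 10.7% were called), and Sort1 in CA2 (-0.48) and CA3 pyramidal-like nuclei (-0.39). In Cajal-Retzius-like (0.758% of genes called), immature neuron-like (0.591%), oligodendrocyte-like (15.8%) and microglia-like nuclei (10.2%) no member's difference was called. No Vgf difference was called, including the -0.44 of CA3 pyramidal-like nuclei (edgeR adjusted p = 0.0574).

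Animals placed in the chamber without shock gave 1 library per treatment, so the Context comparison has no test; intervals cover counting error only. In dentate granule-like nuclei Bdnf had 224 CPM with HDACi-Context, against 84.3 CPM with Veh-Context (log2 1.41, 95% interval 1.30 to 1.52). Ntf3 had 82.2 against 40.1 CPM (1.04, 0.87 to 1.20), Ntrk3 1420 against 841 CPM (0.76, 0.72 to 0.79) and Sort1 280 against 150 CPM (0.90, 0.82 to 0.99), HDACi-Context first in each case. Ntrk2 had 247 CPM with HDACi-Context, against 206 CPM with Veh-Context (0.26, 0.18 to 0.34), and Vgf 15.4 against 12.4 CPM (0.31, -0.02 to 0.64). The 5 genes called in CFC were thus higher in the HDACi-Context library as well, except that with total UMI scaling the Ntrk2 value turned to -0.09, and that of Vgf to -0.04. Across 12 classes, intervals lay above 0 in 7 for Bdnf, 8 each for Ntrk2, Ntrk3 and Sort1, 5 for Ntf3 and 2 for Vgf. With TMM scaling no interval lay below 0. The share over all genes was not taken, so these counts are descriptions only. For Vgf they include immature neuron-like nuclei, on 11 UMIs with HDACi-Context and 1 UMI with Veh-Context. Total UMI scaling moved 32 of 70 Context values out of their counting intervals or past 0, and Ntrk2 was then -0.07 in CA1 and -0.12 in CA3 pyramidal-like nuclei and Vgf -0.36 in interneuron-like nuclei.

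The difference between the Context and CFC effects was tested in a fit of all 6 libraries, in which the lone Context libraries are assumed to vary like the CFC libraries. None of 62 pairs was called by edgeR (lowest adjusted p = 0.452), against 0.767% of all genes called in dentate granule-like, 0.405% in CA1, 0.0573% in CA2, 0.243% in CA3, 0.0514% in subicular, 0.177% in interneuron-like, 0% in Cajal-Retzius-like and 0.142% in immature neuron-like nuclei. In glia the shares were 0.0126% in astrocyte-like, 0.334% in oligodendrocyte-like, 0.0149% in oligodendrocyte precursor-like and 0.156% in microglia-like nuclei. At an unadjusted p below 0.05 there were 5 pairs: Bdnf in subicular and cortical excitatory-like, Ntf3 in CA2 pyramidal-like, Sort1 in oligodendrocyte precursor-like, and Vgf in CA1 and CA3 pyramidal-like nuclei. For Vgf in CA3 pyramidal-like nuclei the log2 value was 0.33 in Context (95% interval -0.05 to 0.72), beside the -0.41 of CFC. For Bdnf in subicular and cortical excitatory-like nuclei it was 1.08 in Context (0.65 to 1.51), beside 0.30 in CFC.

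Summed levels do not show how many nuclei held a UMI, so each dentate granule-like nucleus was thinned to 2000 UMIs. A Bdnf UMI was then found in 25.9% (95% exact interval 23.2 to 28.7) and 26.5% of nuclei of HDACi-CFC libraries and in 14.1% (11.8 to 16.5) and 14.5% of Veh-CFC libraries. In Context it was found in 32.1% of nuclei with HDACi and 17.6% with Veh. Before thinning, the shares were 52.7% and 59.0% in HDACi-CFC, 34.0% and 39.5% in Veh-CFC, 68.4% in HDACi-Context and 39.2% in Veh-Context libraries. The share of nuclei with a Bdnf UMI was higher in each drug library than in any vehicle library, before and after thinning. Ntf3 was found in 14.2% and 13.4% of thinned nuclei with HDACi-CFC, 8.17% and 6.84% with Veh-CFC, 13.9% with HDACi-Context and 8.14% with Veh-Context. Thinning kept 998 of 1018 and 1360 of 1381 nuclei in HDACi-CFC, 881 of 909 and 1286 of 1306 in Veh-CFC, 1709 of 1714 in HDACi-Context and 1412 of 1424 in Veh-Context libraries.

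As a background, oligodendrocyte-like nuclei thinned in the same way held a Bdnf UMI in 5.88% and 9.15% of nuclei with HDACi-CFC, 1.93% and 4.67% with Veh-CFC, 6.80% with HDACi-Context and 5.45% with Veh-Context. Their median depth before thinning was 1804 to 2384 UMIs, against 5342 to 6868 UMIs in dentate granule-like nuclei. Nuclei with fewer UMIs than the thinning depth cannot be thinned to it and were left out. The background therefore covers only the deeper oligodendrocyte-like nuclei, and the number kept is not given here. The shares in dentate granule-like nuclei lay above this background in every library, and the background itself was higher in both HDACi-CFC than in both Veh-CFC libraries.

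The wider neurotrophin pathway was described from gene lists. Of 16 further ligands and receptors, 12 were tested in dentate granule-like nuclei, where 6 were called higher and none lower, beside 23.5% of all genes higher and 26.1% lower, with a median log2 of 0.21 beside 0.01 over all genes tested. The same shares of all genes apply to the other lists in this class. Sorl1, a sorting receptor related to sortilin, had 269 and 271 CPM with HDACi-CFC, against 149 and 148 CPM with Veh-CFC (log2 0.84). Kidins220, a membrane scaffold that Trk receptors phosphorylate, had 156 and 158 CPM with HDACi-CFC, against 126 and 115 CPM with Veh-CFC (log2 0.37). Ptprs, a receptor tyrosine phosphatase (0.45), and Slitrk2, a synaptic adhesion protein (0.40), were also higher. In these genes the drug libraries lay above both vehicle libraries.

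Over all genes, 18.4% were called higher and 20.3% lower in CA1 pyramidal-like and 16.4% and 14.9% in CA3 pyramidal-like nuclei. In interneuron-like nuclei 17% of all genes were called higher and 13.4% lower. Counts of every list in these classes stand beside these shares, and some lie near them. In interneuron-like nuclei 6 of 12 genes of this first list were called higher and none lower. The median was 0.37 beside -0.02 over all genes. In CA1 pyramidal-like nuclei 4 of 11 were called higher, led by Sorl1 (0.81), and in CA3 pyramidal-like nuclei 3 of 12 were higher, led by Sorl1 (0.72), and 1 lower, Slitrk5 (-0.51).

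Of 16 genes of proneurotrophin processing and regulated secretion tested in dentate granule-like nuclei, 6 were called higher and 2 lower (median 0.06), in all a share near the 49.6% of all genes called. Chgb and Scg2, granins of dense-core vesicles, were higher at log2 0.48 and 0.46, as were the proprotein convertase Pcsk5 (0.44) and carboxypeptidase E, Cpe (0.32). Plat, tissue plasminogen activator, had 9.70 and 15.6 CPM with HDACi-CFC, against 23.8 and 26.5 CPM with Veh-CFC (log2 -0.97), and the convertase Pcsk7 was lower too (-0.69). Plat was also lower in CA1 (-0.79) and CA3 pyramidal-like nuclei (-0.69), in which the convertase Pcsk2 was higher (0.69 and 0.91). Counts were 7 higher and 3 lower of 17 in CA1, and 6 higher and 2 lower of 16 in CA3 pyramidal-like nuclei. In interneuron-like nuclei 6 of 17 were higher, led by Cadps2 (0.78; 229 and 519 CPM with HDACi-CFC, against 229 and 209 CPM with Veh-CFC, so that the first drug library lay at the vehicle level), and 1 lower, Pcsk7 (-0.75).

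Of 44 Trk adaptors and effectors tested in dentate granule-like nuclei, 13 were called higher and 14 lower, with a median of -0.18; both shares lie near those of all genes, 23.5% and 26.1%. Rps6ka2, which encodes the RSK3 kinase, had 161 and 143 CPM with HDACi-CFC, against 74.7 and 73.0 CPM with Veh-CFC (log2 1.02), and the adaptor gene Shc3 (0.86) was higher too. Rps6ka5, which encodes the kinase MSK1, was lower (-1.35), with 11.6 and 10.6 CPM with HDACi-CFC against 26.6 and 28.6 CPM with Veh-CFC. Gab2 (-0.51), Map2k2 (-0.49) and Nras (-0.47) were lower as well. In interneuron-like nuclei, where 14 of 44 were higher and 5 lower, Rps6ka5 was higher (0.97; 209 and 181 CPM with HDACi-CFC, against 97.1 and 97.9 CPM with Veh-CFC), opposite to dentate granule-like nuclei, and that difference was not tested. Counts were 11 higher and 13 lower of 44 in CA1 (Sqstm1 0.79, Pik3cb -1.02) and 10 higher and 7 lower of 42 in CA3 pyramidal-like nuclei (Nras -1.02).

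Of 12 feedback inhibitors of the MAP kinase branch tested in dentate granule-like nuclei, 7 were called higher and 1 lower, beside 23.5% and 26.1% of all genes, with a median of 0.46. Cblb, a ubiquitin ligase, had 516 and 545 CPM with HDACi-CFC, against 224 and 223 CPM with Veh-CFC (log2 1.23). The Ras pathway inhibitors Spred2 (0.75), Spred1 (0.47) and Spry2 (0.44) were higher, and Nf1, which encodes the Ras GTPase activator neurofibromin, was lower (-0.49). Nf1 was lower in CA1 (-0.28) and CA3 pyramidal-like nuclei (-0.43) as well, where Dusp6 (0.78) and Cblb (0.51) led the higher genes. Counts were 5 higher and 1 lower of 14 in CA1, 3 higher and 1 lower of 12 in CA3 pyramidal-like, and 1 higher (Spred1, 0.42) and none lower of 11 in interneuron-like nuclei.

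Regulators known from Bdnf promoters were called in 13 of 22 cases in dentate granule-like nuclei, 6 higher and 7 lower (median -0.09), again near the 23.5% and 26.1% of all genes. The transcription factor gene Mef2c had 728 and 747 CPM with HDACi-CFC, against 342 and 335 CPM with Veh-CFC (log2 1.10), and Mef2d (0.97), the glucocorticoid receptor gene Nr3c1 (0.93) and Tcf4 (0.73) were higher. Creb1, whose protein binds the cyclic AMP response element, had 34.9 and 34.2 CPM with HDACi-CFC, against 55.0 and 50.5 CPM with Veh-CFC (log2 -0.62). The corepressor gene Sin3a (-1.30), the acetyltransferase gene Ep300 (-0.84) and Carf (-0.37) were lower. Sin3a was lower in CA1 (-1.04) and CA3 pyramidal-like (-1.07) and interneuron-like nuclei (-1.19), beside Mef2d (0.96), Nr3c1 (0.97) and Arnt2 (0.85) as the leading higher genes. Counts were 7 higher and 8 lower of 22, 4 higher and 6 lower of 21, and 6 higher and 5 lower of 19 in CA1, CA3 and interneuron-like nuclei in that order.

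**Figure D5:**
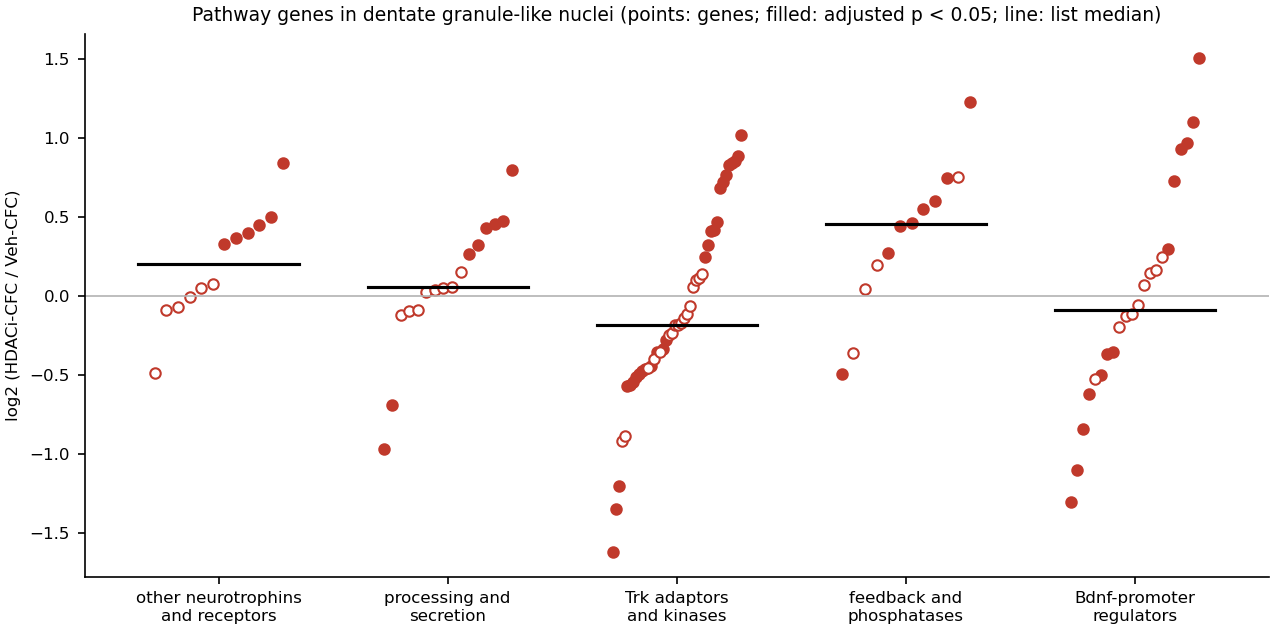
Log2 of HDACi-CFC over Veh-CFC of the pathway genes in dentate granule-like nuclei, with 1 point per gene, filled where the adjusted p was below 0.05, and a line for the list's median. Lines lie at 0.21, 0.06, -0.18, 0.46 and -0.09 from left to right, and each list holds genes on both sides of 0.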

How the data were processed

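The 6 deposited libraries hold UMI counts per gene and nucleus, made by the authors with Cell Ranger 3.0.1 (CFC) or 3.0.2 (Context), per the file headers; per the submitters' processing notes mm10 and Seurat 4.0.3 were used. Aligner settings are not given in the sources used here. Barcodes needed 500 detected genes and no more than 5% of UMIs from mitochondria, and Scrublet removed 1004 doublets, as implemented in scanpy 1.11.5. Leiden clusters (leidenalg 0.10.2), made without the members, pathway and activity genes, were named from fixed markers. UMIs were summed per library and class and tested with edgeR 4.0.16 (quasi-likelihood, TMM, filterByExpr) with Benjamini-Hochberg adjustment over all genes tested; alternatives included DESeq2 1.42.0, whose NA adjusted p-values were left out. The fit was tested on simulated counts drawn at a set spread, which need not match that of these libraries. Of simulated 1.5-fold changes, 25.8% were called in dentate granule-like, 29.9% in CA3 pyramidal-like and 7.69% in Cajal-Retzius-like nuclei. For 2-fold changes the shares were 70%, 72% and 33.0% in the same order. A gene that was not called can therefore still have changed. The members and lists were chosen with earlier results of these data known. Pathway genes are named by rule: up to 4 highest and 4 lowest called genes per list in dentate granule-like nuclei, and 1 of each in CA1, CA3 and interneuron-like nuclei (mean log2 CPM from 4 upward, groups apart); some genes that the rule names are not reported here. Intervals cover counting error only.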

Additional observations from a re-analysis of the deposited data

Results flagged for a closer look

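The drug effect in CFC differed between dentate granule-like nuclei and another class in 13 tests, each in a joint edgeR fit of the same 4 libraries with library as a block. Values are the log2 effect in the named class minus that in dentate granule-like nuclei. For Bdnf the difference was -0.426 in CA1, -1.07 in CA2 and -0.627 in CA3 pyramidal-like nuclei and -0.983 in subicular and cortical excitatory-like nuclei. For Ntf3 it was -1.16 in CA2 pyramidal-like nuclei. For Ntrk2 it was -0.421 in CA2 and -0.337 in CA3 pyramidal-like nuclei, and positive in interneuron-like (0.468) and oligodendrocyte precursor-like nuclei (0.655). For Ntrk3 it was -0.279 in interneuron-like and -0.772 in astrocyte-like nuclei. For Sort1 it was -0.477 in CA2 and -0.394 in CA3 pyramidal-like nuclei. With total UMI scaling, 6 of these calls were lost: Ntrk2 and Sort1 in CA2 and CA3, and Ntrk3 in both classes.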

How the results depend on the processing

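Counts below are set beside the reported ones. DESeq2 called 4958 genes in dentate granule-like nuclei (7500 reported), 3439 in CA1 (5704), 596 in CA2 (1694), 1727 in CA3 (3978), 895 in subicular (2338), 1592 in interneuron-like (3692), 64 in Cajal-Retzius-like (339), 229 in immature neuron-like (587), 748 in astrocyte-like (2390), 1426 in oligodendrocyte-like (3507), 706 in oligodendrocyte precursor-like (2094) and 826 in microglia-like nuclei (2731). It called 1 member higher in each of astrocyte-like, Cajal-Retzius-like and microglia-like nuclei, and 0 lower in CA3. Total UMI scaling called 3588 genes in subicular nuclei, and 3 members higher in CA1, 2 in subicular and 1 each in astrocyte-like, CA2, Cajal-Retzius-like and oligodendrocyte precursor-like nuclei; 1 member was lower in each of dentate granule-like, CA1, interneuron-like and subicular nuclei. Per nucleus, 120 genes were called in Cajal-Retzius-like and 1496 in subicular nuclei. Members higher were then 3 in dentate granule-like, 1 each in CA2, Cajal-Retzius-like, oligodendrocyte-like and oligodendrocyte precursor-like, and 0 in CA1, CA3, subicular, interneuron-like, astrocyte-like and microglia-like nuclei; 1 was lower in each of dentate granule-like, CA1 and interneuron-like nuclei. Per nucleus Ntrk2 turned to -0.0963 in dentate granule-like and -0.059 in CA1 nuclei. By construction these scalings move all genes of a class together. With TMM in interneuron-like cluster 18 alone, a fit added after seeing the data, Ntf3 was -0.558.

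Replicate numbers were not shown to pair the libraries: same-numbered deviations correlated at -0.0945 to 0.11 over only 2 pairs. With the replicate block, 0 genes and 0 members were called by edgeR in Cajal-Retzius-like nuclei, with 609 genes at an unadjusted p under 0.05, and 978 genes and 3 members in immature neuron-like nuclei. With all 6 libraries, 1060 genes and 2 members were called in immature neuron-like and 3625 genes in subicular nuclei, and 0 members were lower in CA3. With nuclei passing their own marker threshold, 571 genes were called in CA2 and 955 in subicular nuclei, with 2 members higher in subicular and 2 in immature neuron-like nuclei. Without a filter on low counts 2 members were higher in immature neuron-like nuclei. With doublets kept, 4 were higher in astrocyte-like, 2 in immature neuron-like and 4 in oligodendrocyte precursor-like nuclei. With a higher minimum of genes per nucleus, 1 was higher in Cajal-Retzius-like and 2 in microglia-like nuclei. The cause of these changes was not tested.

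Leaving out 1 library in turn, genes called ranged over 1423 to 2054 in astrocyte-like, 768 to 1663 in CA2, 2607 to 3135 in CA3, 37 to 398 in Cajal-Retzius-like, 323 to 544 in immature neuron-like, 2128 to 3358 in interneuron-like, 1436 to 2201 in microglia-like, 0 to 3131 in oligodendrocyte-like, 1329 to 1667 in oligodendrocyte precursor-like and 394 to 2529 in subicular nuclei. The 0 came without either Veh-CFC library, with 2954 and 2849 genes at an unadjusted p under 0.05. Members higher ranged over 1 to 2 in CA2, 0 to 2 in Cajal-Retzius-like, 1 to 2 in immature neuron-like, 1 to 3 in microglia-like, 0 to 4 in oligodendrocyte-like and 0 to 4 in subicular nuclei, and members lower over 0 to 1 in CA3. A lone library left in a group is assumed to vary like the other group. Over the log2 values of the members, 725 alternatives stayed on the same side of the threshold, and 95 lost and 22 gained a call. Another 3 turned direction with a call in at least 1 of the 2 fits. Values called in neither fit count among the 725 whatever their direction, and some of them turned. Bdnf in CA2 pyramidal-like nuclei was 0.253 as reported and as low as -0.095, and Ntf3 there 0.128 and as low as -0.455.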

Other observations

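Unnamed cluster 13, whose 555 nuclei had a relative depth of 0.155 and were led by genes that include Ttr and Hba-a1, held 108 ± 6.54 CPM of Bdnf and 176 ± 130 CPM of Vgf (SD, n = 3) in the vehicle libraries. Among interneuron-like clusters, Ntf3 stood at 30.1 CPM in cluster 18, 13.7 CPM in cluster 10 and 2.02 CPM in cluster 14 at baseline, and Ntrk2 at 1108, 751 and 570 CPM in the same clusters. These values are per total UMIs, without TMM, and were picked out after they had been seen.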
